A study of Mus musculus with 15 samples.

Results

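Collagens are the triple-helical proteins of the extracellular matrix, and each gene of the family encodes 1 chain of a collagen type. The members were taken by symbol, as every gene named Col followed by a type number, the letter a and a chain number, and 44 of the 24411 gene symbols in the files met this rule. They were grouped into 11 fibrillar genes, 6 basement membrane genes of type IV, 9 genes of the fibril-associated collagens with interrupted triple helices (FACIT) and 18 genes of other types. RNA was measured by bulk sequencing of mouse liver in 6 LATS KO libraries, 5 Yap OE libraries and 4 TdTomato libraries. LATS KO stands for loss of Lats, a kinase of the Hippo pathway that restrains the co-activator Yap, and Yap OE for overexpression of Yap. The design text calls the remaining libraries wild type, and their label, TdTomato, names a red fluorescent protein. The labels of these libraries give no strain, age, sex, treatment, driver of the transgene or time, do not say which Lats gene was removed, and describe an extraction from mice of a different design, from which nothing was taken.

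In the liver, fibrillar collagens of types I and III are made mainly by stellate cells and portal fibroblasts and build up in scar tissue. Type IV forms the sheet-like network of basement membranes around vessels and bile ducts, FACITs coat the surface of fibrils, and type XVIII, the source of the fragment endostatin, is a basement membrane zone collagen that hepatocytes transcribe. Yap and its paralog Taz act on DNA through TEAD factors, and matrix genes are among the genes known to respond to them.

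Levels are given as CPM, the counts of a gene scaled to a common library size with TMM factors. The log2 fold changes with their standard errors come from edgeR's quasi-likelihood test of 13055 genes over all 15 libraries, with Benjamini-Hochberg adjustment. A gene was called at an adjusted p under 0.05. Gene counts per library ran between 6166680 and 28225360. LATS KO 3 and TdTomato 1 stood apart. In them 89.9% and 78.5% of their reads were unmapped, against 2.53% to 16.7% elsewhere. They detected 9710 and 8501 genes, against 13372 to 15641. Of the 27 collagens that passed the filter on low counts, 17 were at 0 in LATS KO 3 and 19 in TdTomato 1, and at most 10 in any other library. For part of the values that depend on these libraries, results without them are also given. Yap1 had 146 to 212 CPM in Yap OE, 65.9 to 86.4 CPM in LATS KO and 94.8 to 115 CPM in TdTomato. It was called higher in Yap OE than in TdTomato (log2 fold change 0.82 ± 0.17, adjusted p = 0.00433). Lats1 had 0 to 27.3 CPM in LATS KO and 0 to 46.0 CPM in TdTomato (-0.94 ± 1.00, adjusted p = 0.62; without the 2 libraries above -1.10, adjusted p = 0.0247). Lats2 was not lower, with 7.66 to 40.9 CPM in LATS KO and 0 to 19.6 CPM in TdTomato (0.58 ± 0.75, adjusted p = 0.695). The counts thus do not show a lower level of Lats2. For Lats1 they show a partial reduction, called without those libraries, with 10.495 to 27.3 CPM left in LATS KO 1, 2, 4, 5 and 6, against 28.7 to 46.0 CPM in TdTomato 2 to 4. The groups are called by their labels.

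Collagen RNA in the liver was mostly Col18a1 (chr10:77052178-77166548, GRCm38) in every library. It held 67.2% to 92.4% of the CPM of the family. Its level was 676 to 1336 CPM (median 1062) in LATS KO, 989.55, 1210.4, 1133, 981 and 647 CPM in Yap OE 1 to 5 and 585, 1690, 2049.8 and 1242 CPM in TdTomato 1 to 4. The 3 groups overlapped. The gene was called in none of the comparisons (LATS KO minus TdTomato -0.43 ± 0.33, adjusted p = 0.456; Yap OE minus TdTomato -0.49 ± 0.34, adjusted p = 0.313). It was called lower in Yap OE without TdTomato 1 and LATS KO 3 (-0.74, adjusted p = 0.0345). Per kilobase of transcript, the scale on which genes can be compared, Col18a1 stood at 185 ± 48.1 CPM per kb in LATS KO, 177 ± 38.6 in Yap OE and 249 ± 113 in TdTomato (SD, n = 6, 5 and 4). The next collagen stood at 8.34 ± 4.91, 8.29 ± 6.14 and 8.54 ± 7.30 CPM per kb. That next gene was Col5a3 in LATS KO and TdTomato but Col3a1 in Yap OE. Below it came Col4a1 (5.81 ± 3.14) and Col4a2 (4.25 ± 2.51) in LATS KO, Col4a1 (7.03 ± 3.54), Col16a1 (6.00 ± 1.12) and Col4a5 (5.91 ± 2.85) in Yap OE, and Col27a1 (5.39 ± 3.13) and Col15a1 (3.66 ± 1.06 CPM per kb) in TdTomato. Apart from Col18a1, the neighbours named here in LATS KO and Yap OE differed by less than either SD. In TdTomato, Col5a3 and Col27a1, and Col27a1 and Col15a1, differed by less than the larger of their SDs. Lower in the TdTomato order, Col15a1 exceeded Col4a1 (2.34 ± 0.715) by more than either SD, and so did Col4a2 (1.83 ± 0.213) over Col4a5 (0.797 ± 0.965 CPM per kb).

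Of the 44 collagens, 38 had a count in at least 1 LATS KO library, 39 in Yap OE and 29 in TdTomato. The filter kept 27 members for testing. Among the 17 others, Col6a4, Col10a1 and Col19a1 had no count in any library and 11 stayed below 1 CPM everywhere, the highest being Col6a6 with 0.957 CPM in TdTomato 4. The remaining 3 exceeded 1 CPM only in LATS KO 3, one of the libraries with few mapped reads, where Col11a1 had 5.00, Col26a1 4.11 and Col28a1 6.00 CPM.

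**Figure D1:**
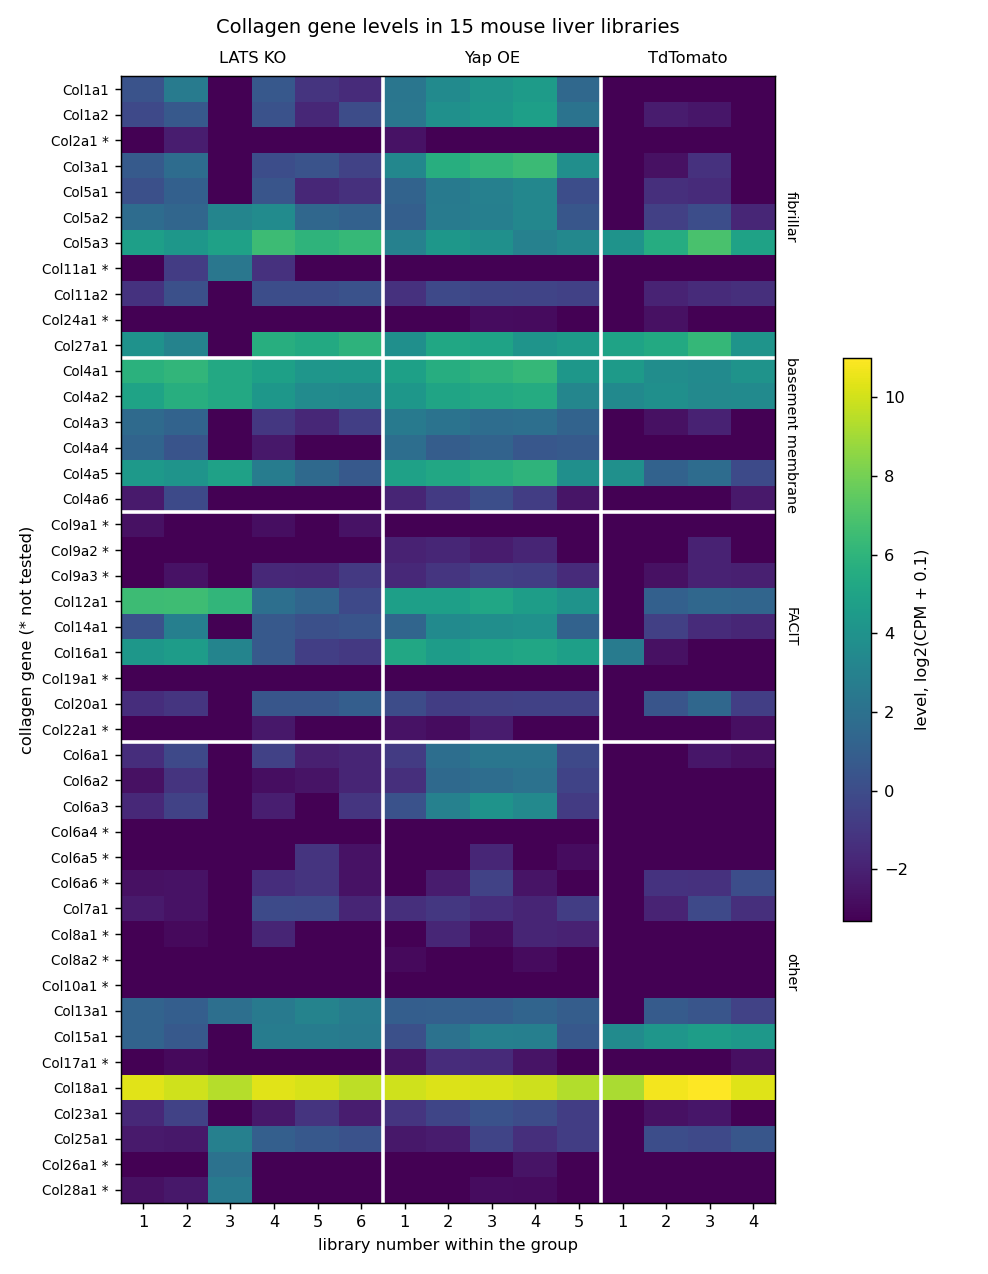
Level of each collagen (rows, grouped by class) in each library (columns: LATS KO, Yap OE, TdTomato), as log2 of CPM plus 0.1. Col18a1 is high in every column, types I, III and VI are brightest in Yap OE 2, 3 and 4, and LATS KO 3 and TdTomato 1 show many members at 0.

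Compared with TdTomato, Yap OE livers had more RNA of collagen types I, III and VI, of 4 of the 6 type IV genes and of the FACITs Col12a1 and Col14a1. The summed fibrillar level overlapped fully between the groups, at 43.1 to 159 CPM in LATS KO (median 81.0), 46.1 to 182.5 CPM in Yap OE (median 144) and 47.7 to 192 CPM in TdTomato (median 68.6). Of the 27 tested members 16 were called, against 28.7% of all tested genes. Among them 15 were higher (17.9% of all tested genes were) and 1, Col5a3, was lower (10.8% of all tested genes were). LATS KO livers had 6 members called, all higher than TdTomato, against 10.0% of all tested genes called higher and 11.0% called in either direction. None was called lower by edgeR (0.973% of all tested genes), with 1 collagen lower at an unadjusted p under 0.05. DESeq2 called 1 collagen lower (359 of all 13055 tested genes) and limma voom 2 (1396 genes). Both comparisons share the 4 TdTomato libraries. By class, the calls in Yap OE were 5 higher and 1 lower of 8 tested fibrillar genes, 4 higher of 6 type IV genes, 2 higher of 4 FACITs and 4 higher of 9 other genes. In LATS KO they were 4 fibrillar genes, 1 type IV gene and 1 FACIT, all higher. Without TdTomato 1 and LATS KO 3 20 members were called in Yap OE (48.5% of all tested genes), 17 of them higher and 3 lower (27.1% and 21.4%). In LATS KO it was 9 members (17.0% of all tested genes), 8 of them higher and 1 lower (13.7% and 3.29%). These include all 15 of the higher calls in Yap OE and 5 of the 6 in LATS KO. The LATS KO calls moved more with the libraries. Leaving out 1 library at a time gave 0 to 11 called members, lowest without TdTomato 2 and highest without LATS KO 3, and a fit of LATS KO and TdTomato alone called none. In Yap OE, leaving out 1 library gave 12 to 19 called members. DESeq2 called 16 members in LATS KO (2894 of all 13055 tested genes).

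**Figure D2:**
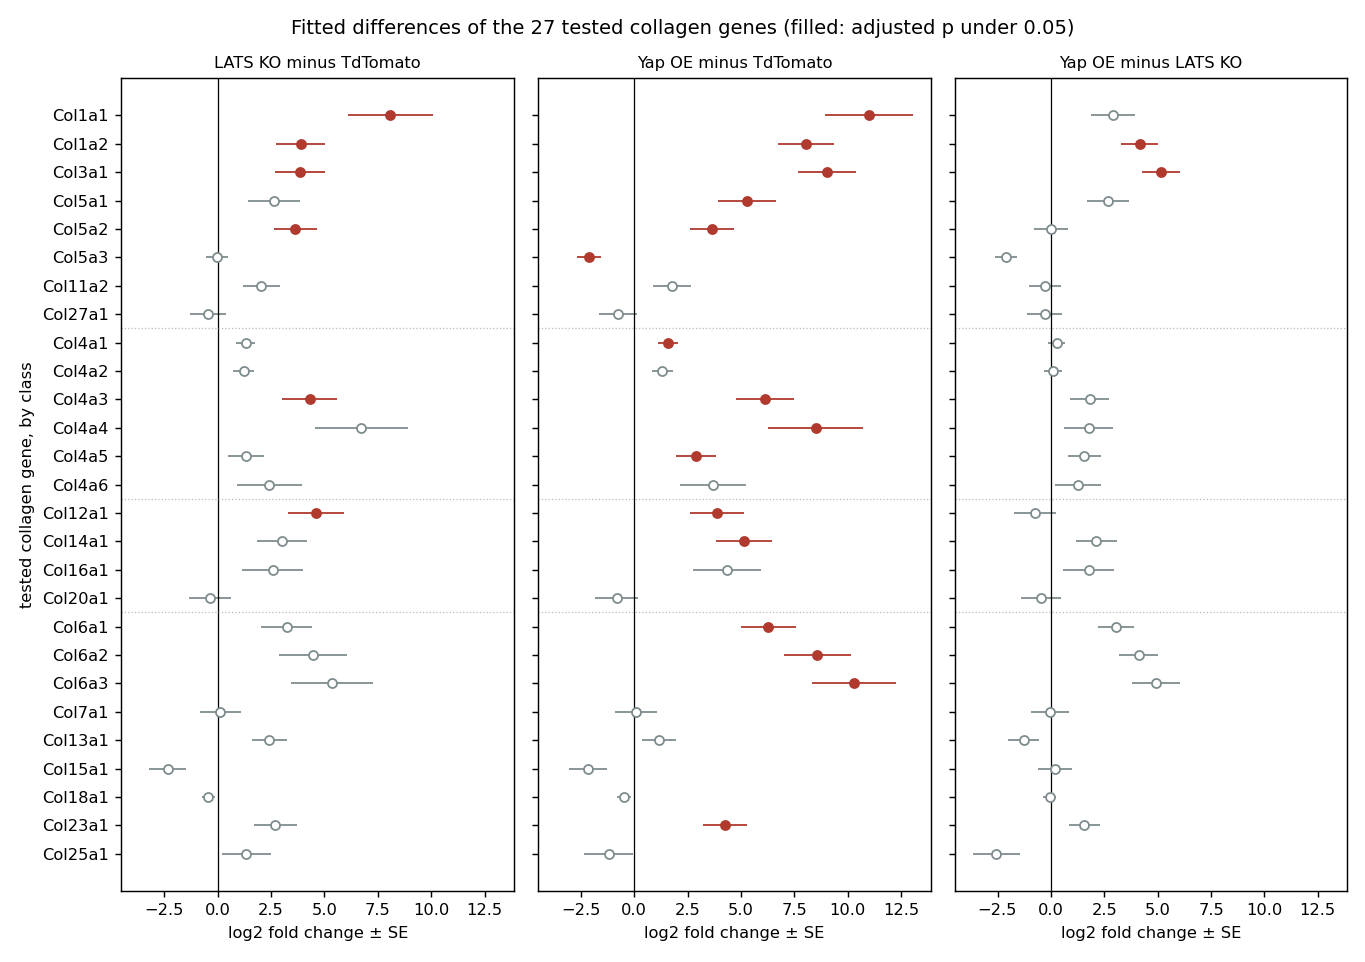
Log2 fold change ± SE for each tested collagen, from edgeR, in LATS KO minus TdTomato, Yap OE minus TdTomato and Yap OE minus LATS KO. Filled points mark members called at an adjusted p under 0.05: 6, 16 and 2 members; fold changes of genes at 0 in TdTomato depend on the prior count.

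Types I and III were almost undetected in TdTomato and present in both other groups. Col1a1, which encodes the major chain of type I (chr11:94936224-94953042, GRCm38), had 0.240 to 6.14 CPM in 5 LATS KO libraries and 0 in LATS KO 3, and 4.83, 11.6, 17.3, 23.1 and 2.78 CPM in Yap OE 1 to 5, against 0 in all 4 TdTomato libraries. No Yap OE library overlapped TdTomato, and among LATS KO libraries LATS KO 2 was highest. Set against the limit of 3 counts over the TdTomato group (0.0465 CPM), Col1a1 was at least 49.7-fold higher in LATS KO (adjusted p = 0.0226) and at least 254-fold higher in Yap OE (adjusted p = 0.00401). Without LATS KO 2 the bound in LATS KO was 16.8-fold, and without TdTomato 2, 3 or 4 the adjusted p lay between 0.0541 and 0.0623. Without TdTomato 1 and LATS KO 3 the bounds were 43.1-fold in LATS KO and 203-fold in Yap OE.

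Col1a2, the partner chain of type I, had 0.202 to 1.50 CPM in 5 LATS KO libraries and 0 in LATS KO 3, and 5.04, 14.2, 19.2, 26.8 and 4.35 CPM in Yap OE, against 0, 0.110, 0.0794 and 0 CPM in TdTomato. With 3 counts over the TdTomato group, the ratio was 20.3 in LATS KO (exact 95% interval 6.77 to 100.04; adjusted p = 0.0411) and 296 in Yap OE (101 to 1437; adjusted p = 0.00164). Such intervals cover counting error only. Without TdTomato 1 and LATS KO 3 the ratios were 17.6 in LATS KO and 237 in Yap OE. Without TdTomato 2 the ratios were 43.8 in LATS KO (7.70 to 1747) and 638.5 in Yap OE (114 to 25232). Type III followed the same order. Col3a1 (chr1:45311538-45349706) had 1.57, 3.19, 0, 0.964, 1.15 and 0.601 CPM in LATS KO and 9.93, 49.95, 70.03, 87.4 and 13.4 CPM in Yap OE, against 0, 0.0551, 0.318 and 0 CPM in TdTomato. All Yap OE libraries lay above all others, and 5 of the 6 LATS KO libraries lay above TdTomato. The log2 fold change was 3.86 ± 1.16 in LATS KO (adjusted p = 0.0448) and 9.02 ± 1.34 in Yap OE (adjusted p = 0.00123). Without TdTomato 3 the ratios were 82.7 in LATS KO (14.7 to 3283) and 2354.5 in Yap OE (422 to 93012). Both LATS KO calls lay close to the threshold. Leaving out any of 11 of the 15 libraries moved the adjusted p of Col1a2 to between 0.0514 and 0.113 and that of Col3a1 to between 0.0501 and 0.123. For Col1a2 these were all 4 TdTomato libraries, LATS KO 1, 2 and 4 and Yap OE 1 to 4, and for Col3a1 TdTomato 1, 2 and 4, LATS KO 1, 2, 4 and 5 and Yap OE 2 to 5.

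In Yap OE the type I chains kept a narrow proportion per length, with 0.577 to 0.863 times as much Col1a1 as Col1a2 in the 5 libraries, while the level of Col1a1 itself ran between 2.78 and 23.1 CPM. The summed CPM of Col1a1, Col1a2 and Col3a1 was 0 to 10.8 in LATS KO (median 2.65), 19.8 to 137 in Yap OE (median 75.8) and 0 to 0.397 in TdTomato (median 0.0827). The promoters of Col1a2 and Col3a1 are shown because edgeR called these members in all 3 comparisons. The RefSeq table (GRCm38.p6) has windows of 300 bases, 250 before to 50 after the start, for 35 of the 44 members (38 windows), among them Col1a2 at chr6:4505368-4505667 and Col3a1 at chr1:45311288-45311587, both on the plus strand. Capitals mark 3 motifs on either strand: CCAAT, the TATA box TATAAA, and the letters that TEAD factors bind, GGAATG.
Col1a2: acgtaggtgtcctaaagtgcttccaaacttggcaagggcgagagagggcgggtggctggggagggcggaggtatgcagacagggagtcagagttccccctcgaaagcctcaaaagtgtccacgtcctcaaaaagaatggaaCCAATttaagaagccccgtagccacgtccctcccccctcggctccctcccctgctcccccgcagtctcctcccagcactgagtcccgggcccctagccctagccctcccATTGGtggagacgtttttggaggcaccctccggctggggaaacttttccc
Col3a1: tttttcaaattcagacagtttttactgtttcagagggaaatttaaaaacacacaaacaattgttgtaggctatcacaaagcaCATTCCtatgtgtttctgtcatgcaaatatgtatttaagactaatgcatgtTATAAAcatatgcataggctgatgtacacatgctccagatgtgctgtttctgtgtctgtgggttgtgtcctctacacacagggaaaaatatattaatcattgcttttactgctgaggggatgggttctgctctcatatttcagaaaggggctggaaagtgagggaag
The Col3a1 window holds 1 GGAATG and 1 TATAAA and the Col1a2 window 2 CCAAT and neither of the other motifs. GGAATG was found in 14.7% of all 32851 promoter windows and in 5 of the 38 collagen windows, those of Col3a1, Col4a6, Col6a2, Col18a1 and Col20a1; Col3a1 and Col6a2 were the ones among these called in the fit over all libraries. TATAAA was in 13.6% of all windows and 5 of the collagen windows, CCAAT in 37.4% and 13. The GC box GGGCGG, not marked here, was in 35.7% of all windows and 23 of the 38. These are matches of letters and not measured binding.

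**Figure D3:**
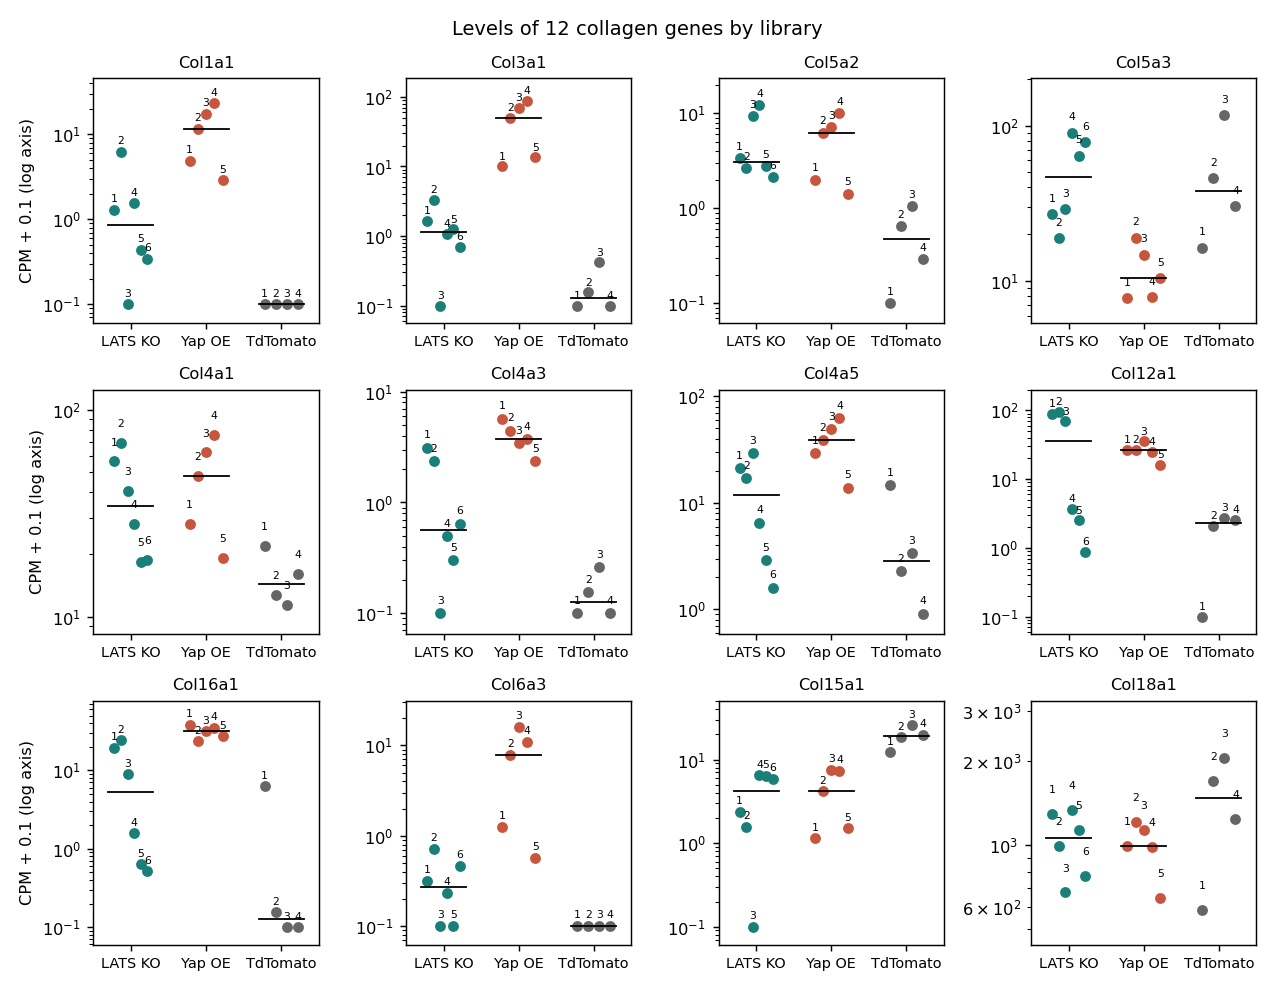
CPM (plus 0.1, log axis) in each numbered library for 12 collagens, with a line at each group median; groups run LATS KO, Yap OE, TdTomato. Types I and III are highest in Yap OE, Col5a2 is alike in LATS KO and Yap OE, Col12a1 is split among LATS KO libraries, and Col15a1 is highest in TdTomato.

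Type V, which joins type I in mixed fibrils and limits their diameter, divided by chain. Col5a2 had 2.04 to 12.1 CPM in LATS KO (median 3.00) and 1.91, 6.18, 7.07, 9.93 and 1.33 CPM in Yap OE, against 0, 0.551, 0.953 and 0.191 CPM in TdTomato. Every LATS KO and every Yap OE library was above every TdTomato library, and the log2 fold changes were close to each other, 3.64 ± 1.01 (adjusted p = 0.0312) and 3.63 ± 1.02 (adjusted p = 0.0167). The LATS KO call was lost without TdTomato 2, TdTomato 4 or LATS KO 4 (adjusted p 0.0551 to 0.0967) and that of Yap OE without TdTomato 4 (0.0533). Without TdTomato 3 the log2 fold changes were 4.36 in LATS KO and 4.35 in Yap OE. Col5a2 lies 24614 bp from Col3a1 on chromosome 1, on the other strand. Col5a1 had 0 to 1.99 CPM in LATS KO and 0.940 to 9.79 CPM in Yap OE, against 0 to 0.276 CPM in TdTomato, and was called in Yap OE and not in LATS KO (Yap OE 5.29 ± 1.35, adjusted p = 0.0104, or 6.06 without TdTomato 2; LATS KO 2.63 ± 1.20, adjusted p = 0.184).

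Col5a3, the third type V chain, went the other way. It had 26.8, 18.7, 28.9, 90.0, 64.0 and 77.8 CPM in LATS KO and 7.66, 18.9, 14.7, 7.79 and 10.3 CPM in Yap OE, against 16.3, 45.8, 117 and 30.1 CPM in TdTomato. Yap OE libraries were low, with Yap OE 2 above TdTomato 1, and the log2 fold change in Yap OE was -2.14 ± 0.56 (adjusted p = 0.0119), or -1.37 (adjusted p = 0.0635) without TdTomato 3. In LATS KO it was -0.03 ± 0.53 (adjusted p = 0.979; 95% interval -1.07 to 1.00). Col27a1, a cartilage-type fibrillar collagen, was at 0 in LATS KO 3, a library with few mapped reads, and present in every other library. It had 8.53 to 62.1 CPM in the other LATS KO libraries, 14.1 to 36.9 CPM in Yap OE and 17.1 to 73.3 CPM in TdTomato. The gene was not called. Col11a2 stayed at or below 1.14 CPM and was not called by edgeR over all libraries. It was called higher in both groups by DESeq2, by limma voom and by edgeR without LATS KO 3. Without TdTomato 1 and LATS KO 3 its log2 fold change was 1.91 in LATS KO (adjusted p = 0.0257) and 1.38 in Yap OE (adjusted p = 0.0414).

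The type IV chains differed in level and in how they moved. Col4a1 and Col4a2, whose products form the common network of basement membranes, were the most abundant. Col4a1 had 56.1, 69.1, 40.4, 28.0, 18.3 and 18.7 CPM in LATS KO and 27.8, 47.8, 62.0, 75.7 and 19.1 CPM in Yap OE, against 21.9, 12.7, 11.3 and 16.0 CPM in TdTomato. Only LATS KO 5 and 6 and Yap OE 5 fell within the TdTomato range. The log2 fold change was 1.31 ± 0.45 in LATS KO (adjusted p = 0.0740) and 1.59 ± 0.47 in Yap OE (adjusted p = 0.0205), and the Yap OE call was lost without TdTomato 2, TdTomato 3 or Yap OE 4 (adjusted p 0.0562 to 0.0573). Col4a2 had 10.9 to 50.8 CPM in LATS KO (median 25.6) and 9.36 to 45.4 CPM in Yap OE, against 10.6 to 13.8 CPM in TdTomato, and was not called (1.22 ± 0.49, adjusted p = 0.1246; 1.32 ± 0.50, adjusted p = 0.0609). The genes lie head to head, with 5′ ends 21 bp apart on chromosome 8. Per length, the ratio of Col4a1 to Col4a2 was 0.986 to 1.72 in LATS KO, 1.40 to 1.99 in Yap OE and 0.897 to 1.90 in TdTomato. Their RefSeq windows, shown because the start sites adjoin, overlap by 78 bases: Col4a1 at chr8:11312777-11313076 on the minus strand and Col4a2 at chr8:11312555-11312854 on the plus strand, each with 1 CCAAT in capitals and no GGAATG or TATAAA.
Col4a1: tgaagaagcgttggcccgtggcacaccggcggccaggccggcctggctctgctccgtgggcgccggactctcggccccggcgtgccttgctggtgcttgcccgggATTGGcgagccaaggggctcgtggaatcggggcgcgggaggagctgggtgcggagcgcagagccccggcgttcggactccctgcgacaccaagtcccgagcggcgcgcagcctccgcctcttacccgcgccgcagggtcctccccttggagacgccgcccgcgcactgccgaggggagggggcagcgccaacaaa
Col4a2: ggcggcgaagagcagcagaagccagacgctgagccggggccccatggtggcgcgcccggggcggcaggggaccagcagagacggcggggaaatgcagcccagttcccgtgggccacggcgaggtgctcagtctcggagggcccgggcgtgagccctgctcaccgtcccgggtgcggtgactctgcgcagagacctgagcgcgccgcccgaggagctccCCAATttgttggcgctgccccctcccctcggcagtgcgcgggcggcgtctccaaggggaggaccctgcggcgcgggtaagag

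Col4a3, Col4a4 and Col4a5, whose chains assemble together in the basement membrane of the kidney glomerulus, had at most 0.159, 0 and 14.6 CPM in TdTomato. Col4a3 had 3.03, 2.27, 0, 0.394, 0.202 and 0.540 CPM in LATS KO and 5.60, 4.33, 3.33, 3.61 and 2.27 CPM in Yap OE, against 0, 0.0551, 0.159 and 0 CPM in TdTomato. Every Yap OE library exceeded TdTomato, and LATS KO overlapped it through LATS KO 3. On 3 counts in TdTomato the ratios were 28.4 in LATS KO (exact 95% interval 9.53 to 139; adjusted p = 0.0414) and 84.2 in Yap OE (28.7 to 409.5; adjusted p = 0.00587). Without TdTomato 3 they were 68.6 in LATS KO (12.1 to 2726) and 203 in Yap OE (36.3 to 8044). The LATS KO call was lost without any of 11 libraries (all TdTomato and Yap OE libraries and LATS KO 1 and 2; adjusted p 0.0540 to 0.113) and with counts not split by strand (2.34, adjusted p = 0.175). Col4a4 starts 72 bp from Col4a3 on the opposite strand. It had 0 to 2.33 CPM in LATS KO and 1.36 to 3.57 CPM in Yap OE, against 0 in TdTomato. This was at least 15.8-fold higher in LATS KO (adjusted p = 0.0681) and at least 46.6-fold higher in Yap OE (adjusted p = 0.0144). In Yap OE, Col4a3 was 1.71 to 3.14 times Col4a4 per length.

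Col4a5 had 21.3, 16.8, 29.4, 6.44, 2.83 and 1.50 CPM in LATS KO and 29.1, 38.4, 49.5, 62.4 and 13.8 CPM in Yap OE, against 14.6, 2.21, 3.25 and 0.814 CPM in TdTomato. TdTomato 1, the library with few mapped reads, was the highest of its group and above Yap OE 5. The log2 fold change was 1.33 ± 0.85 in LATS KO (adjusted p = 0.363) and 2.90 ± 0.92 in Yap OE (adjusted p = 0.0292), and without TdTomato 1 and LATS KO 3 it was 4.23 (adjusted p = 0.00342) in Yap OE. Its Yap OE call was lost without TdTomato 2, 3 or 4 or Yap OE 3 or 4 (adjusted p 0.0521 to 0.0789). Col4a6, whose 5′ end lies 1309 bp from that of Col4a5 on the X chromosome, reached at most 0.972 CPM. In the 3 Yap OE libraries with enough counts for a ratio, Col4a5 was 51.8 to 127 times Col4a6 per length. The summed CPM of type IV was 31.7 to 141 in LATS KO, 46.2 to 189 in Yap OE and 25.3 to 47.7 in TdTomato. Yap OE 5, the lowest of its group, lay below TdTomato 1.

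**Figure D4:**
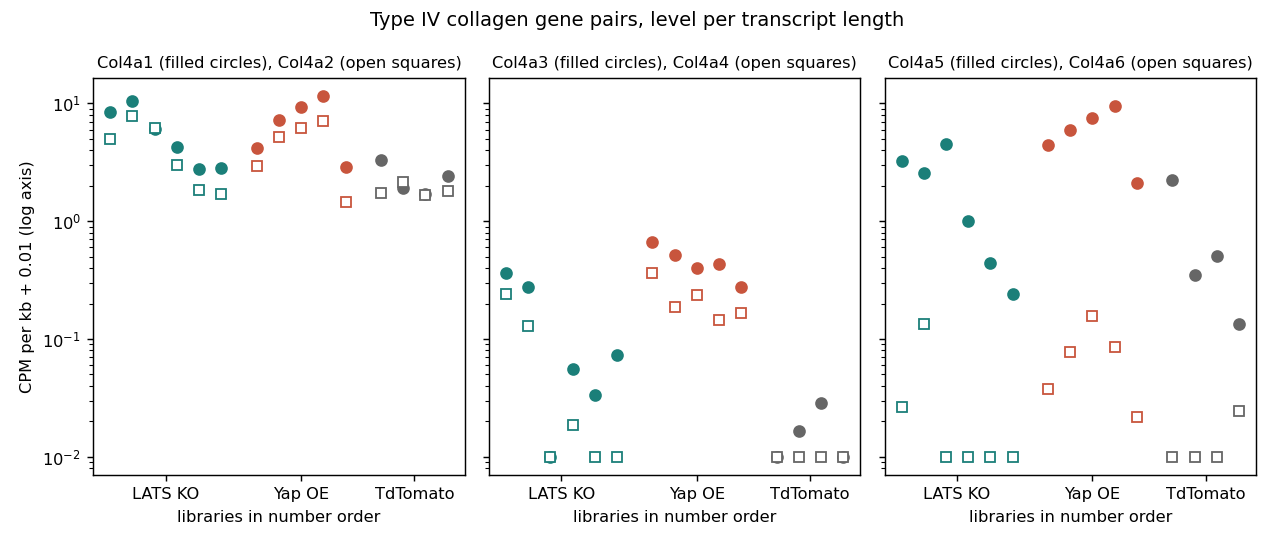
CPM per kb of transcript (plus 0.01, log axis) of the 6 type IV genes in each library, drawn as the 3 pairs of neighbouring genes, with LATS KO, Yap OE and TdTomato in that order. Col4a1 is 0.897 to 1.99 times Col4a2 in each library, Col4a3 and Col4a4 are near 0 in TdTomato, and Col4a5 is well above Col4a6.

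Among the FACITs, Col12a1 (chr9:79598991-79718831), whose product coats type I fibrils, showed the widest spread. It had 88.6, 94.9, 69.2, 3.64, 2.43 and 0.781 CPM in LATS KO and 26.8, 26.8, 35.5, 24.8 and 16.1 CPM in Yap OE, against 0, 1.99, 2.62 and 2.49 CPM in TdTomato. LATS KO 1, 2 and 3 were above every Yap OE library, LATS KO 4, 5 and 6 were near TdTomato, and Yap OE did not overlap TdTomato. The log2 fold change was 4.59 ± 1.30 in LATS KO (adjusted p = 0.0345) and 3.86 ± 1.27 in Yap OE (adjusted p = 0.0335). Leaving out any TdTomato library, LATS KO 1 or LATS KO 2 took the adjusted p in LATS KO to between 0.0621 and 0.0913. Leaving out any TdTomato library or Yap OE 1, 2, 3 or 4 took that in Yap OE to between 0.0518 and 0.0736. Without both TdTomato 1 and LATS KO 3, LATS KO was no longer called (4.01, adjusted p = 0.0641). Limma voom with quality weights gave 0.60 (adjusted p = 0.536) in LATS KO.

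Col14a1, another FACIT of type I fibrils, had 0 to 7.24 CPM in LATS KO (median 1.17) and 2.49, 11.4, 13.3, 15.2 and 2.19 CPM in Yap OE, against 0, 0.551, 0.238 and 0.191 CPM in TdTomato. It was called in Yap OE (5.12 ± 1.31, adjusted p = 0.0105, or 5.88 without TdTomato 2) and not in LATS KO (3.00 ± 1.18, adjusted p = 0.117). Col16a1 had 19.4, 24.4, 8.88, 1.49, 0.539 and 0.420 CPM in LATS KO and 38.2, 23.7, 31.7, 35.1 and 27.5 CPM in Yap OE, against 6.19, 0.0551, 0 and 0 CPM in TdTomato. All Yap OE libraries were far above TdTomato, whose only value above 0.0551 CPM was that of TdTomato 1. Over all libraries edgeR did not call the gene (LATS KO 2.58 ± 1.43, adjusted p = 0.286; Yap OE 4.34 ± 1.58, adjusted p = 0.0505), and without TdTomato 1 and LATS KO 3 it was called in both (adjusted p = 0.0132 in LATS KO and 0.00208 in Yap OE). In Yap OE it was also called without LATS KO 3, 5 or 6, by DESeq2 and by limma voom. Col20a1 stayed at or below 2.70 CPM and was not called. The FACIT sum was 4.74 to 127 CPM in LATS KO, 46.7 to 81.9 CPM in Yap OE and 3.40 to 6.19 CPM in TdTomato.

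Type VI, which forms beaded microfilaments between fibrils and cells, appeared mainly in Yap OE. Col6a3 had 0.216, 0.614, 0, 0.131, 0 and 0.360 CPM in LATS KO and 1.14, 7.81, 16.1, 10.8 and 0.470 CPM in Yap OE, against 0 in all TdTomato libraries. It was at least 153-fold higher in Yap OE (adjusted p = 0.00431) and at least 6.21-fold higher in LATS KO, where it was not called (adjusted p = 0.0961). Without TdTomato 1 and LATS KO 3 these bounds were 122-fold and 5.39-fold. Col6a1 had 0.461 to 4.89 CPM in Yap OE, against 0 to 0.0794 CPM in TdTomato (ratio 90.7, exact 95% interval 25.0 to 752; adjusted p = 0.00414). Without TdTomato 3 that ratio was 146 (26.1 to 5784). Col6a2 had 0.277 to 4.07 CPM in Yap OE, against 0 in TdTomato (at least 47.1-fold higher; adjusted p = 0.00356). Neither was called in LATS KO, where Col6a1 reached 0.798 and Col6a2 0.338 CPM. The type VI sum was 0 to 1.75 CPM in LATS KO, 1.88 to 24.2 CPM in Yap OE and 0 to 0.0794 CPM in TdTomato.

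Col15a1 (chr4:47208161-47313167), the multiplexin related to Col18a1 and found in vascular basement membranes, was the member with the clearest lower values. It had 2.27, 1.47, 0, 6.40, 6.27 and 5.83 CPM in LATS KO and 1.05, 4.07, 7.48, 7.25 and 1.41 CPM in Yap OE, against 12.2, 18.4, 25.5 and 19.8 CPM in TdTomato. Every LATS KO and Yap OE library was below every TdTomato library, as for 1.90% and 13.4% of all tested genes. The fit over all libraries did not call it (-2.35 ± 0.84, adjusted p = 0.0866; -2.15 ± 0.89, adjusted p = 0.0820), and the fit without TdTomato 1 and LATS KO 3 called it lower in LATS KO (-2.26, adjusted p = 0.027) and in Yap OE (-2.32, adjusted p = 0.00929). In the other direction, 2 members lay above every TdTomato library in all LATS KO libraries (6.65% of all tested genes) and 16 in all Yap OE libraries (28.3%). One of the 2 in LATS KO was Col5a2. The other was Col13a1, a transmembrane collagen, with 2.22, 1.84, 3.66, 5.87, 8.36 and 6.31 CPM in LATS KO and 1.80 to 2.32 CPM in Yap OE, against 0 to 1.60 CPM in TdTomato. In LATS KO edgeR did not call it over all libraries (2.42 ± 0.83, adjusted p = 0.0746). It was called there without TdTomato 1 (2.01, adjusted p = 0.0445), without TdTomato 1 and LATS KO 3 (2.08, adjusted p = 0.0185) and by DESeq2 and limma voom. Col23a1, also a transmembrane collagen, had 0.369 to 1.12 CPM in Yap OE, against 0 to 0.0794 CPM in TdTomato, and was called there (ratio 22.9, exact 95% interval 6.16 to 191; adjusted p = 0.00875). Without TdTomato 3 the ratio was 36.8 (6.45 to 1468). Col7a1, of anchoring fibrils, stayed at or below 0.833 CPM, and Col25a1 at or below 1.88 CPM except in LATS KO 3 (7.44 CPM); neither was called.

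**Figure D5:**
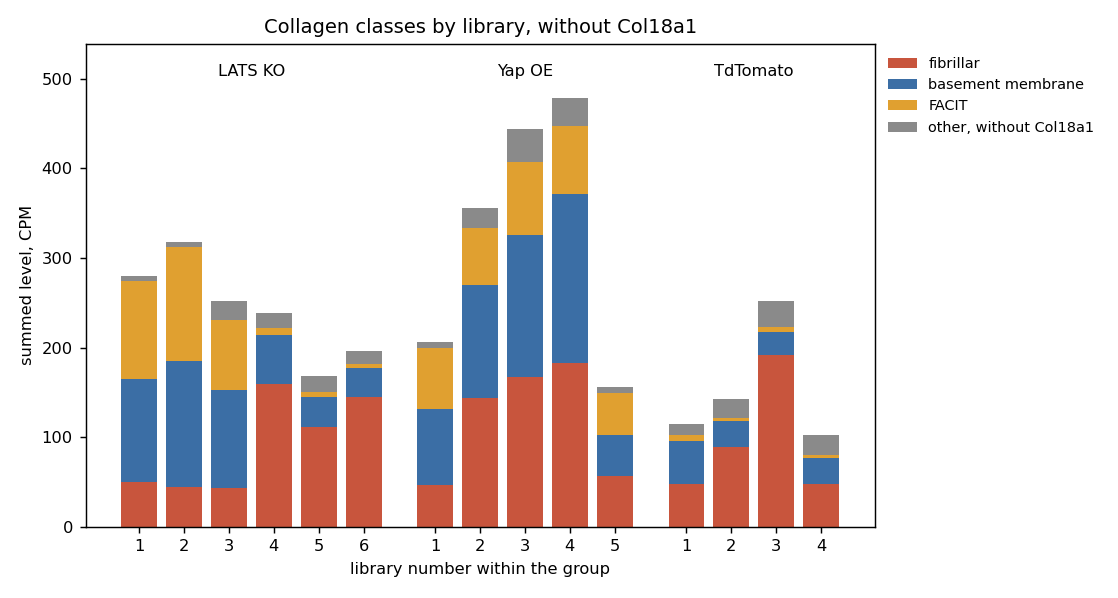
Summed CPM of the collagen classes without Col18a1, stacked for each library of LATS KO, Yap OE and TdTomato. The FACIT part is 4.74 to 127 CPM in LATS KO, 46.7 to 81.9 CPM in Yap OE and 3.40 to 6.19 CPM in TdTomato, and the tallest bars, of Yap OE 4 and 3, reach 479 and 444 CPM.

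Set directly against LATS KO, Yap OE had more type I and type III RNA. Col3a1 (5.16 ± 0.88, adjusted p = 0.011) and Col1a2 (4.15 ± 0.86, adjusted p = 0.0321) were the 2 members called, both higher (0.498% of all tested genes were called higher and 0.988% in either direction). They were also the 2 whose Yap OE libraries all lay above all LATS KO libraries (4.75%). No member had all Yap OE libraries below all LATS KO libraries (1.95%). None was called lower by edgeR, against 0.490% of all tested genes, with 2 lower at an unadjusted p under 0.05. DESeq2 called 1 lower (356 of all 13055 tested genes) and limma voom 4 (3619 genes). Higher were 9 at an unadjusted p under 0.05, 6 by DESeq2 (423 genes) and 17 by limma voom (3706 genes). Without Yap OE 4 the adjusted p of Col3a1 was 0.0566, and without LATS KO 1, 4, 5 or 6 or Yap OE 1, 2, 3 or 4 that of Col1a2 was 0.0567 to 0.130. Col1a1 (2.90 ± 1.04, adjusted p = 0.208; 95% interval 0.86 to 4.95), Col6a2 (4.11 ± 0.92, adjusted p = 0.0582) and Col6a3 (4.91 ± 1.13, adjusted p = 0.0666) were not called. Without TdTomato 1 and LATS KO 3, 6 members were called (12.9% of all tested genes). Higher were 5 (5.54%), the pair above and Col6a1, Col6a2 and Col6a3. Col5a3 was called lower (-2.22, adjusted p = 0.016; 7.32% of all tested genes). The other tested members did not pass in either fit, with wide intervals. That of Col5a2 was -1.55 to 1.54 and that of Col12a1 -2.66 to 1.20 on the log2 scale. Those of Col5a1 (0.74 to 4.57), Col14a1 (0.26 to 3.99) and Col23a1 (0.14 to 2.97) lay above 0. Those of Col4a5 (0.085 to 3.05) and Col4a3 (0.061 to 3.55) are too narrow to place these genes above 0. In the same edgeR fit, 0 of the 6 type IV genes were higher at an unadjusted p under 0.05. That of Col25a1 (-4.74 to -0.36) lay below 0.

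The libraries within a group did not move together for all classes. In Yap OE, 16 tested members, among them Col1a1, Col1a2, Col3a1, Col4a1, Col4a5 and the type VI genes, had their 3 highest values in Yap OE 2, 3 and 4. In LATS KO, Col4a1, Col4a2, Col4a5, Col12a1 and Col16a1 were higher in each of LATS KO 1, 2 and 3 than in any of LATS KO 4, 5 and 6. There Col5a3, Col7a1, Col13a1, Col15a1, Col20a1 and Col27a1 were lower. These orders were read from the values and have no test. Reads that named no gene made up 36.2% to 47.5% in LATS KO 4, 5 and 6, 16.6% and 16.9% in LATS KO 1 and 2 and 92.5% in LATS KO 3; the part of this difference in the collagen values was not tested.

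The enzymes that process collagen also differed from TdTomato. Of 31 tested genes of collagen synthesis and cross-linking (35 in the list), 14 were called higher and 3 lower in Yap OE and 6 higher in LATS KO. Over all tested genes the shares were 17.9% higher and 10.8% lower in Yap OE and 10.0% higher in LATS KO, which apply to each list that follows, and the 3 lower genes are near that share. Without TdTomato 1 and LATS KO 3 the counts were 17 higher and 6 lower in Yap OE (27.1% and 21.4% of all tested genes) and 8 higher and 1 lower in LATS KO (13.7% and 3.29%). The list's median log2 fold change was 0.87 in LATS KO and 1.27 in Yap OE, against 0.13 and 0.17 over all tested genes. Pcolce, which speeds the removal of the C-propeptide of fibrillar procollagens, had 33.0, 69.5, 64.0, 4.34, 2.49 and 1.62 CPM in LATS KO and 92.7 to 285 CPM in Yap OE, against 0 to 3.64 CPM in TdTomato (LATS KO 3.62 ± 1.12, adjusted p = 0.0499; Yap OE 6.27 ± 1.29, adjusted p = 0.00432). It was not called in LATS KO without TdTomato 1 and LATS KO 3 (adjusted p = 0.0946). Serpinh1, the collagen chaperone HSP47, had 2.16 to 5.58 CPM in LATS KO and 6.49 to 18.5 CPM in Yap OE, against 0 to 1.51 CPM in TdTomato, and was among the genes called in Yap OE (3.81 ± 0.83, adjusted p = 0.0055). Its 5 Yap OE libraries lay above all others. The cross-linking oxidase Loxl2 was called in LATS KO (4.28 ± 1.05, adjusted p = 0.0187) and in Yap OE (4.75 ± 1.09, adjusted p = 0.00673), and so was the propeptide-binding Pcolce2 (4.38 ± 0.86, adjusted p = 0.0075; 4.48 ± 0.87, adjusted p = 0.00336). The prolyl hydroxylase P3h2 was called in both, with 19.8, 23.8, 3.66, 1.93, 0.202 and 0.120 CPM in LATS KO and 12.498 to 23.7 CPM in Yap OE, against 0 to 0.386 CPM in TdTomato (5.00 ± 1.37, adjusted p = 0.0292; 6.16 ± 1.45, adjusted p = 0.00751). LATS KO 4, 5 and 6 were again the low libraries. The lysyl hydroxylase Plod2, with 0 to 1.07 CPM in LATS KO and 0.308 to 2.21 CPM in Yap OE, against 0 in TdTomato, was also called in both (adjusted p = 0.0325 and 0.00802; at least 11.3-fold higher in LATS KO). The 3 genes called lower in Yap OE, named after their values were seen, act on many secreted proteins: P4hb (-1.07 ± 0.26, adjusted p = 0.00916), Ppib (-0.86 ± 0.27, adjusted p = 0.0278) and Mia3 (-1.14 ± 0.28, adjusted p = 0.00925).

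Of 8 tested collagen receptors (11 in the list), 3 were called higher in each comparison with TdTomato, with medians of 2.23 in LATS KO and 3.03 in Yap OE; without TdTomato 1 and LATS KO 3 it was 3 and 4. Ddr1, a receptor tyrosine kinase that binds collagen, had 122, 150.5, 140.5, 2.67, 1.15 and 0.180 CPM in LATS KO and 97.9 to 241 CPM in Yap OE, against 0 to 0.766 CPM in TdTomato (7.82 ± 1.76, adjusted p = 0.013; 9.10 ± 1.86, adjusted p = 0.00415). LATS KO 1, 2 and 3 matched the Yap OE range and LATS KO 4, 5 and 6 were near TdTomato, the order seen for Col12a1. Lair1, an inhibitory collagen receptor of leukocytes, was called in both. Adgrg1 was called in Yap OE (5.55 ± 1.18, adjusted p = 0.00493) and, over all libraries, not in LATS KO (2.45 ± 1.01, adjusted p = 0.136; without TdTomato 1 and LATS KO 3 2.31, adjusted p = 0.0380). Ddr2, a second receptor tyrosine kinase for collagen, had 16.5 CPM in LATS KO 3 and 0.270 to 0.460 CPM in the other LATS KO libraries, and 0.274 to 1.76 CPM in Yap OE, against 0 to 0.165 CPM in TdTomato. It was called in LATS KO over all libraries (ratio 35.0, exact 95% interval 11.8 to 171; adjusted p = 0.0440) and not in Yap OE (adjusted p = 0.0644). The calls turned round without TdTomato 1 and LATS KO 3, with 2.44 in LATS KO (adjusted p = 0.0987) and 4.08 in Yap OE (adjusted p = 0.00478). Of 13 tested matrix proteins that bind collagen (19 in the list), 5 were called higher in LATS KO and 11 in Yap OE, with medians of 2.79 and 4.64, and 6 and 11 without TdTomato 1 and LATS KO 3. Sparc, a collagen-binding matricellular protein, had 25.6 to 53.6 CPM in LATS KO and 134 to 320.0 CPM in Yap OE, against 0 to 4.52 CPM in TdTomato (3.64 ± 0.68, adjusted p = 0.00632; 6.03 ± 0.77, adjusted p = 0.000559). The groups did not overlap. Nid1, the nidogen that links type IV to laminin, had 7.39 to 679 CPM in LATS KO and 256 to 598 CPM in Yap OE, against 0 to 4.08 CPM in TdTomato (6.86 ± 1.50, adjusted p = 0.0117; 7.61 ± 1.56, adjusted p = 0.00419). Prelp, a leucine-rich proteoglycan, had 4.62 to 996 CPM in LATS KO and 124 to 369.5 CPM in Yap OE, against 0.670 to 2.79 CPM in TdTomato, and was called in both (8.07 ± 1.59, adjusted p = 0.00764; 7.55 ± 1.57, adjusted p = 0.00448). Nid2 was called in Yap OE (2.65 ± 0.52, adjusted p = 0.00357) and not in LATS KO (1.45 ± 0.48, adjusted p = 0.0674). Lum, a fibril-binding proteoglycan, was called in both, with at most 0.789 CPM in LATS KO and 5.93 CPM in Yap OE. In the direct comparison of Yap OE with LATS KO edgeR called none of these 3 lists' genes over all libraries. Without TdTomato 1 and LATS KO 3 it called 2, 1 and 3 higher (5.54% of all tested genes). At an unadjusted p under 0.05 there were 6 of the first list, 1 receptor and 5 matrix proteins (1910 of all 13055 tested genes). DESeq2 called 2, 1 and 3 (779 genes) and limma voom 21, 6 and 12 (7325 genes), with 5 of the 21 lower.

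Markers of several cell types also differed from TdTomato, and whether they varied with the collagens was not tested. In bulk RNA, more cells of a type and more RNA per cell cannot be told apart. Of 15 tested markers of stellate cells and fibroblasts, 1 (Ecm1) was called higher in LATS KO and 11 in Yap OE (1 and 12 without TdTomato 1 and LATS KO 3), among them Pdgfrb (5.61 ± 1.44, adjusted p = 0.0107), Colec11, Ngfr and Lrat. The summed level of the 16 listed markers was 40.8 to 168 CPM in LATS KO, 71.7 to 134 CPM in Yap OE and 31.8 to 73.0 CPM in TdTomato, with none at 0 throughout a group. Of 13 markers of myofibroblasts, smooth muscle and portal fibroblasts, 6 were tested, of which 1 was called higher in LATS KO and 4 in Yap OE (2 and 5 without those libraries). Their sums were 2.46 to 71.3, 8.21 to 26.3 and 0 to 1.60 CPM in LATS KO, Yap OE and TdTomato. The marker called in LATS KO, Fbln2, had 65.0 and 21.5 CPM in LATS KO 2 and 3 and 0 to 6.27 CPM in the other LATS KO libraries. In Yap OE Fbln2 had 0.392 to 2.79 CPM. Acta2, Cnn1, Thy1, Gli1, Mfap4 and Mgp were at 0 in all TdTomato libraries and Mfap4 in all LATS KO libraries. Acta2, the smooth muscle actin of activated stellate cells, had 0.704 to 4.79 CPM in Yap OE (at least 39.6-fold higher than TdTomato, adjusted p = 0.00477). The part of these cells in the fibrillar and type VI values was not tested.

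Of 10 tested cholangiocyte markers, 5 were called higher in LATS KO and 8 in Yap OE (3 and 8 without TdTomato 1 and LATS KO 3). The summed level of the 12 listed was 4509.6, 2031, 1418, 231, 118 and 154 CPM in LATS KO 1 to 6, 3948 to 6400.5 CPM in Yap OE and 58.4 to 72.0 CPM in TdTomato, where Cftr and Sctr were at 0. Most of it was Spp1 (osteopontin), which made up 68.5% to 93.3% of the sum in LATS KO, 91.6% to 96.1% in Yap OE and 27.1% to 61.7% in TdTomato. Without Spp1 the sum was 302, 251, 185, 47.5, 37.2 and 37.5 CPM in LATS KO 1 to 6, 200.2 to 359 CPM in Yap OE and 23.5 to 52.5 CPM in TdTomato. LATS KO 1, 2 and 3 were the high LATS KO libraries with and without Spp1, as for Col12a1, Col16a1, Col4a1 and Col4a5. The part of these cells in those values was not tested. Of 14 endothelial markers, 3 were called higher in LATS KO and 4 in Yap OE over all libraries, and 10 and 11 without TdTomato 1 and LATS KO 3. DESeq2 called 6 and 8 of them higher (2535 and 3512 of all 13055 tested genes) and limma voom 13 and 13 (2105 and 4694 genes). Their sums were 37.1 to 439 CPM in LATS KO, 180 to 283 CPM in Yap OE and 50.01 to 78.5 CPM in TdTomato. Of 12 macrophage markers, 12 were called higher in LATS KO and 11 in Yap OE, with median log2 fold changes of 5.62 and 5.56 and sums of 173 to 1508, 468 to 1031 and 5.46 to 23.5 CPM in LATS KO, Yap OE and TdTomato. None of the 7 mesothelial markers found in the counts (8 in the list) passed the filter on low counts. They summed to 34.3 and 24.4 CPM in LATS KO 2 and 3, where Msln alone had 32.0 and 24.4 CPM, and to at most 1.57 CPM elsewhere. Of 11 tested hepatocyte markers, Tat was called lower in LATS KO (-1.42 ± 0.40, adjusted p = 0.0319) and Tat, Cps1 and Apob in Yap OE (2 and 6 lower without TdTomato 1 and LATS KO 3). The listed marker that was not tested, Ass1, had at most 0.601 CPM in LATS KO, 0.235 CPM in Yap OE and 0.766 CPM in TdTomato. None of the 12 listed was at 0 throughout a group. Between Yap OE and LATS KO, Epcam was the one listed marker that edgeR called over all libraries (4.48 ± 0.80, adjusted p = 0.0129). Without TdTomato 1 and LATS KO 3 it called 4 stellate cell, 4 myofibroblast and 3 cholangiocyte markers higher (5.54% of all tested genes). In that fit 1 endothelial and 2 hepatocyte markers were called lower (7.32%). Of the stellate cell, myofibroblast and cholangiocyte lists, DESeq2 called 3 each higher (423 of all 13055 tested genes). Limma voom called 10, 5 and 10 higher (3706 genes). Lower in these lists were 1 myofibroblast and 1 cholangiocyte marker by DESeq2 (356 genes) and 1 stellate cell marker by limma voom (3619 genes).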

How the data were processed

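The authors deposited 1 table of raw read counts per library in the layout that STAR writes, with a gene symbol, an unstranded count and a count for each strand; the reverse-strand counts were used here. The mm10 build, STAR, Trimmomatic and FastQC are named, per the submitters' processing notes. Versions are not given in the sources used here. Lines that name no gene held 14.2% to 92.5% of reads and were left out. Counts of genes were filtered with filterByExpr and scaled with TMM factors, and edgeR 4.0.16 (R 4.3.3) fitted the 3 groups over 15 libraries, with 12 residual degrees of freedom and Benjamini-Hochberg adjustment over 13055 genes. The scripts were tested on simulated data. DESeq2 1.42.0 and limma 3.58.1 served as alternatives, beside other filters, factors, count columns and library sets. Summaries used Python 3.11.15. Gene lengths and positions came from GENCODE on GRCm38, promoter windows from RefSeq.

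Strand-specific counts were used, as some neighbouring genes lie on opposite strands. Counts not split by strand gave 5 called collagens in LATS KO minus TdTomato, against 6. They gave 16 in Yap OE minus TdTomato, against 16, and 3 in Yap OE minus LATS KO, against 2. The forward column held 0.966% to 1.99% of stranded counts. The unmapped share of LATS KO 3 and TdTomato 1 leaves low genes there with few or no counts. Against an all-0 group a fold is a bound at 3 counts over the group, and with 1 to 3 counts it is a ratio with an exact 95% interval. The 95% intervals of log2 fold changes are normal approximations from the SE and are narrower than edgeR's test implies. Nothing in the labels says that libraries of a group come from separate animals, so p-values measure the spread between libraries, which may be technical. No 2 libraries of a group were duplicates (chi-square per gene at least 26.3). Correlations of deviations between same-numbered libraries ran between -0.249 and 0.232 over 13 pairs. They show no pairing by number, but cannot exclude one, and the samples were treated as unpaired. Besides all collagens, up to 4 genes per list and comparison were named, those with the smallest adjusted p, with markers at 0 and Lats1, Lats2 and Yap1. The members and lists were chosen with earlier results of these data known.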

Additional observations from a re-analysis of the deposited data

Results flagged for a closer look

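In 77 groups of 4 to 6 values of tested collagens, 8 single libraries lay far from the rest of their group by Dixon's criterion. It was applied to CPM. Chance meets the criterion in about 1 of 20 groups of normally distributed values. That rate does not hold for CPM with many values at or near 0, so the 8 cannot be set against it. LATS KO 2 stood out for 3 genes: Col1a1 at 6.14 CPM, against 0 to 1.45 CPM in the other LATS KO libraries, Col14a1 at 7.24 CPM (0 to 1.49 CPM) and Col4a6 at 0.829 CPM (0 to 0.108 CPM). LATS KO 3, one of the libraries with few mapped reads, stood out for Col25a1 with 7.44 CPM (0.0921 to 1.88 CPM in the others). In Yap OE, Col13a1 was high in library 4 at 2.32 CPM (1.80 to 1.89 CPM) and Col20a1 in library 1 at 0.892 CPM (0.518 to 0.588 CPM). In TdTomato, Col16a1 was 6.19 CPM in library 1, also one with few mapped reads, against 0 to 0.0551 CPM, and Col4a6 was 0.0957 CPM in library 4, against 0 in the others. A group with a single library above 0, like that of Col4a6 in TdTomato, meets the criterion whatever the value.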

How the results depend on the processing

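Of 1929 log2 fold changes of 27 collagens under the alternatives, 1672 kept their direction and their side of the threshold, 91 lost a call, 103 gained one and 63 changed sign, none of them from a called value. The number of collagens called in LATS KO minus TdTomato was 6. It was 16 with DESeq2 and 0 with the 2 groups alone (14 at an unadjusted p under 0.05), and 0 to 11 with 1 library left out. In Yap OE minus TdTomato it was 16, and 12 to 19 with 1 library left out. In Yap OE minus LATS KO it was 2. It was 7 with DESeq2, 21 with limma voom, 6 without LATS KO 3 and TdTomato 1, a setting chosen after seeing the data, and 0 to 5 with 1 library left out. Over all genes the calls in LATS KO minus TdTomato were 1438, against 2894 with DESeq2, 3501 with limma voom (2105 higher and 1396 lower, against 1311 and 127), 0 with the 2 groups alone (2494 at an unadjusted p under 0.05), 2223 without LATS KO 3 and TdTomato 1 and 605 to 1808 with 1 library left out. In Yap OE minus TdTomato they were 3744 (2332 higher and 1412 lower), against 8868 with limma voom and 6333 without the 2 libraries, and 2630 to 4989 with 1 library left out. In Yap OE minus LATS KO they were 129, against 779 with DESeq2, 7325 with limma voom, 1678 without the 2 libraries (723 higher and 955 lower, against 65 and 64) and 36 to 389 with 1 library left out. The replicate number was also fitted as a block, although the labels do not name it as a pairing. With it LATS KO minus TdTomato had 740 genes and 3 collagens (Col5a2 remained called), and Yap OE minus LATS KO 13 genes and 0 collagens.

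Signs that changed belonged to uncalled, mostly near-0 values. In LATS KO minus TdTomato, Col4a6 was -0.21 with limma voom; Col5a3 was 0.039 with RLE factors and DESeq2 and 0.24 with limma voom; Col7a1 was -0.17 under the replicate block and -0.036 without the 2 libraries, where Col25a1 was -0.16. In Yap OE minus TdTomato, Col7a1 was -0.0049 with limma voom and -0.29 without the 2 libraries. In Yap OE minus LATS KO, the block gave -0.094 for Col4a2, 0.41 for Col7a1, 0.026 for Col11a2, 0.23 for Col20a1 and 0.22 for Col27a1. There Col5a2 was 0.069 with RLE factors and DESeq2, 0.17 with limma voom, 0.0020 with no filter, 0.00078 with unstranded counts, 0.0034 with the 2 groups alone and 0.21 without the 2 libraries. Col7a1 was 0.082 with RLE factors and 0.085 with DESeq2, Col18a1 0.043 with both, and Col15a1 -0.41 with limma voom and -0.059 without the 2 libraries. Col12a1 was 3.03 with limma voom, past the threshold (adjusted p = 4.2e-05), against -0.73. Under its other settings the direction was lower in Yap OE. With 1 library left out, signs changed in LATS KO minus TdTomato for Col4a6 (-0.21 to 4.96), Col5a3 (-0.33 to 0.73), Col7a1 (-0.40 to 1.07) and Col20a1 (-0.77 to 0.51), in Yap OE minus TdTomato for Col7a1 (-0.31 to 1.02) and Col20a1 (-1.24 to 0.050), and in Yap OE minus LATS KO for Col4a2 (-0.11 to 0.37), Col5a2 (-0.37 to 0.42), Col7a1 (-0.28 to 0.49), Col15a1 (-0.11 to 0.44), Col18a1 (-0.16 to 0.075) and Col27a1 (-0.56 to 0.050). The cause of these changes was not tested. Depth limits the low members: 3 counts over a group equal 0.0262 CPM in LATS KO, 0.0215 CPM in Yap OE and 0.0465 CPM in TdTomato.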
